A study of Homo sapiens with 12 samples.

Results

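The 9 genes described here are the inhibitor of DNA binding genes ID1, ID2, ID3 and ID4 together with 5 genes of bone morphogenetic protein (BMP) signalling: the ligand genes BMP2 and BMP4, the receptor gene BMPR2, the secreted modulator gene BMPER and the inhibitory SMAD gene SMAD6. They were taken by symbol from the 62703 gene IDs of a table of RNA sequencing counts. The list was chosen with earlier results of these data known. All 9 were present, each with 1 gene ID. The table covers 12 libraries of H69 cells, an established line of human bile duct epithelial cells (cholangiocytes). Cells of all groups were serum-starved for 6 h. They then received, in medium without serum, vehicle, TGFβ at 10 ng/mL, Aramchol at 30 µM, or both agents, and were left overnight. Aramchol joins a bile acid (cholic acid) to a saturated fatty acid (arachidic acid) and is known as an inhibitor of stearoyl-CoA desaturase. Each of the 4 groups had 3 libraries, and the vehicle, TGFβ, Aramchol and TGFβ + Aramchol groups all came from the same cell line. Nothing in the labels says that the libraries of a group were separate cultures, so p-values measure the spread among these libraries only, which may be technical. The question that the design poses is how Aramchol acts on the response of cholangiocytes to TGFβ.

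BMPs are secreted ligands of the TGFβ superfamily that bind pairs of type I and type II receptors, and the activated type I receptor phosphorylates SMAD1, SMAD5 and SMAD9, which enter the nucleus with SMAD4. ID1, ID2, ID3 and SMAD6 are well known targets of these SMADs, and ID1 is also known to respond to TGFβ itself, up or down depending on the cell. ID proteins have a helix-loop-helix domain but no basic region, so they pair with E proteins (encoded by TCF3, TCF4 and TCF12) and keep them off DNA. SMAD6 closes a negative feedback loop on BMP receptors.

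ID1, ID2, ID3 and SMAD6 are textbook targets of BMP SMADs and were all higher with TGFβ, so the 250 bases before their RefSeq start are shown (GRCh38.p14, 5′ to 3′ on the gene's strand). The capitals mark every match, on either strand, to 1 of 4 motifs of SMAD proteins: the palindrome GTCTAGAC, the palindrome GGCGCC, the motif GGAGCC (on the other strand GGCTCC) and the motif GTCTG (on the other strand CAGAC). GTCTAGAC holds neither of the other motifs, and where matches touched they were marked together.

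ID1: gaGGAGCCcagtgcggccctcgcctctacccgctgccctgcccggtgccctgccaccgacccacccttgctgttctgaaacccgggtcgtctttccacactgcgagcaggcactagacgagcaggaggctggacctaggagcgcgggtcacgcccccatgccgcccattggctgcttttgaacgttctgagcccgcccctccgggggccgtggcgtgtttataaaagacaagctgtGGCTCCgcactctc
ID2: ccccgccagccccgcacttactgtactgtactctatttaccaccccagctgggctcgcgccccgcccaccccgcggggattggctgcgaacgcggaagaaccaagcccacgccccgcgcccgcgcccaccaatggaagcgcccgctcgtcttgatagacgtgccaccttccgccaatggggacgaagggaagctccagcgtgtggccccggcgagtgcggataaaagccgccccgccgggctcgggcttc
ID3: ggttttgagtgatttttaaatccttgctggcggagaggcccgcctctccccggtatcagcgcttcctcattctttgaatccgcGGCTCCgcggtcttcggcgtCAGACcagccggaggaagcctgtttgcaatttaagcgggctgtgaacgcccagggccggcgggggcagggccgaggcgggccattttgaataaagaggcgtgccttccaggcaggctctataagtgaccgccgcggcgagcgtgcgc
SMAD6: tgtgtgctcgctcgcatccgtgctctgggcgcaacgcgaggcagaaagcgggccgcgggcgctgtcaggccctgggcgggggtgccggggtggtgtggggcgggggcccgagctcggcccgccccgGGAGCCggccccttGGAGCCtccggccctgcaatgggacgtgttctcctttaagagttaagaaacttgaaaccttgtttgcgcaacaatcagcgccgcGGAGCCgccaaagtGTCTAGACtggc

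The windows lie at chr20:31605039-31605288 on the plus strand for ID1, chr2:8681806-8682055 on the plus strand for ID2, chr1:23559502-23559751 on the minus strand for ID3 and chr15:66701986-66702235 on the plus strand for SMAD6. The ID1 window held GGAGCC at -248 and GGCTCC at -14, counted from the RefSeq start to the first base of the match. The ID3 window held GGCTCC at -167 and CAGAC at -147, and the ID2 window held none of the 4. The SMAD6 window held GGAGCC at -124, -110 and -26 and the palindrome at -12. Of 35116 promoter windows of this length, 0.182% held GTCTAGAC, 16.4% GGCGCC, 30.6% GGAGCC and 38.0% GTCTG, in each case on either strand. Only the match of SMAD6 to the palindrome was therefore uncommon among these 4 windows. A match is a run of letters and says nothing of binding, and a window without one says only that these letters are not in it. For 8 of the 9 genes the RefSeq table had a promoter, 11 in all.

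Total counts ran from 52279922 to 70339925 per library. A count of 3, taken as the floor, corresponded to 0.0427 to 0.0574 CPM when scaled to the total of the library alone. The CPM levels of genes are counts scaled to that total times the TMM factor of the library. These factors ran from 0.930 (TGFβ replicate 3) to 1.09 (vehicle replicate 3), so the floor is on a slightly different scale. Of all gene IDs, 21567 passed a filter on low counts and were tested with edgeR's quasi-likelihood test. SMAD7, a TGFβ target, was higher in every TGFβ library than in every vehicle library, which checks the labels of these groups. It does not check which libraries received Aramchol. The cholangiocyte keratin genes KRT7, KRT8 and KRT18 were high in every library, and the summed level of 11 cholangiocyte markers was 1307 to 2834 CPM, but CFTR and SCTR were near 0. The leukocyte list summed to 0.0770 to 0.202 CPM, and the fibroblast list to 1017 to 1205 CPM with vehicle against 4411 to 5894 CPM with TGFβ, nearly all of it COL1A1. The libraries numbered 3 stood apart in all 4 groups: in a fit with a term for that number, 2725 genes (12.6%) differed from the libraries numbered 1 and 2. In the column headers the 4 libraries of each replicate number carry consecutive running numbers, with 1 library from each group. What else the 4 libraries numbered 3 share is not said in the sources used here. In cultures sequenced in bulk, fewer cells that express a gene and less RNA per cell cannot be told apart.

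The levels of the 9 genes can be set side by side as RPKM (CPM divided by the length of the gene model). In vehicle ID1 was the highest at 30.0 ± 6.50 RPKM, followed by BMP4 at 15.5 ± 0.840 and ID3 at 13.1 ± 2.997 RPKM (mean ± SD, n = 3 libraries here and throughout). The SDs of BMP4 and ID3 overlapped, but BMP4 was above ID3 in each vehicle library. The values were 16.4 against 14.5, 15.5 against 15.1 and 14.7 against 9.62 RPKM, a difference that was not tested. BMPR2 stood at 7.23 ± 1.21 RPKM, and BMPER, BMP2, ID2 and SMAD6 lay close together, from 1.58 ± 0.864 down to 0.923 ± 0.103 RPKM. In TGFβ the order was ID1 at 41.2 ± 5.97, ID3 at 33.3 ± 3.44, BMPR2 at 14.0 ± 0.777, BMP4 at 4.41 ± 0.572, SMAD6 at 2.33 ± 0.125, BMP2 at 1.98 ± 0.109, BMPER at 1.83 ± 0.456 and ID2 at 1.64 ± 0.106 RPKM. Ranked by group mean, BMP4 had thus moved from the second place to the fourth and SMAD6 from the eighth to the fifth. ID4, the ID gene best known from neural and mammary cells, had 4 counts in all 12 libraries together and at most 2 in any of them. It was under the floor in every library and was not tested, so its expression was not detectable at this depth.

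**Figure D1:**
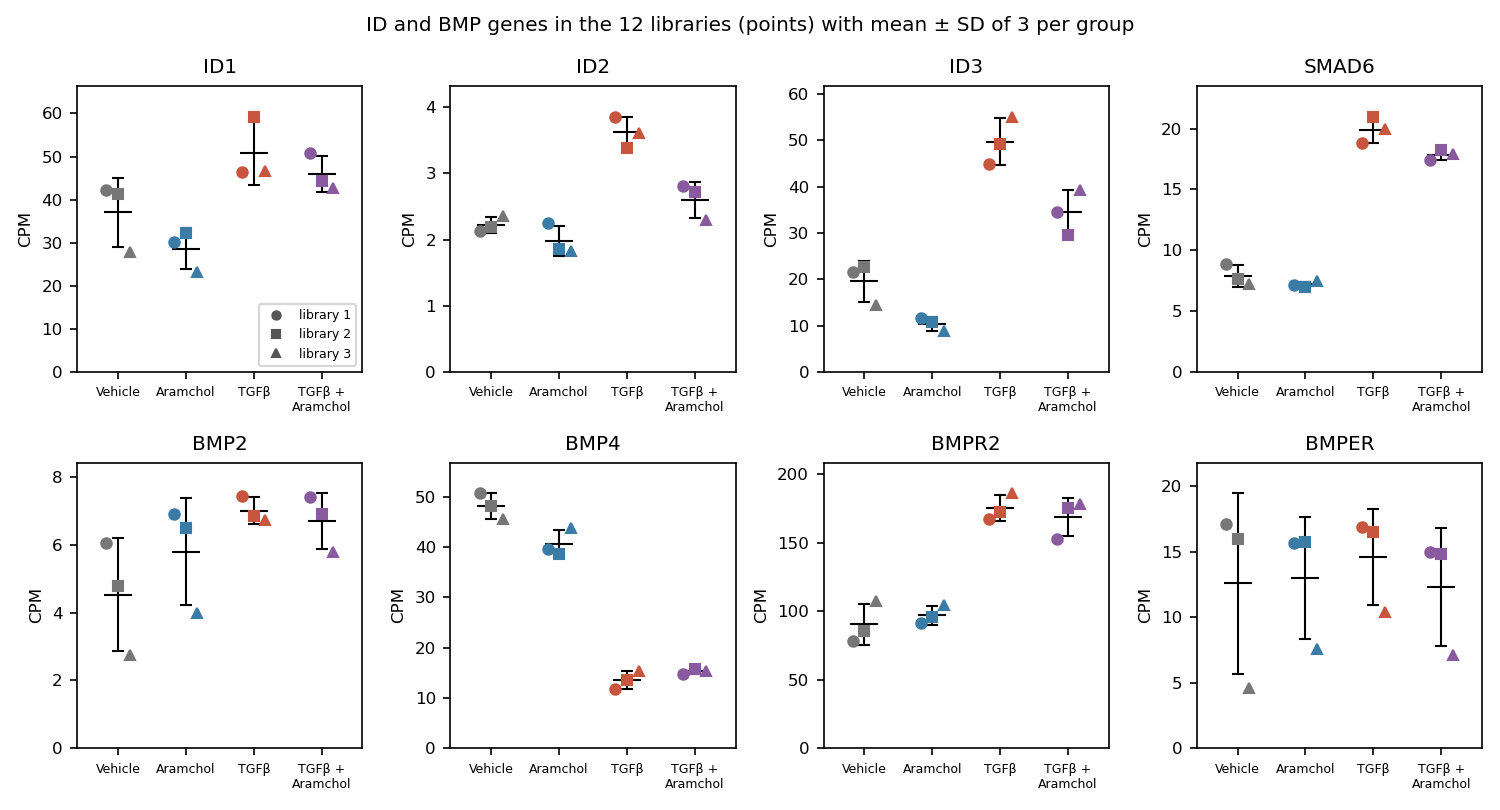
Levels of the 8 tested genes in CPM (vertical axes, from 0) in the 4 groups (horizontal axes). Each point is a library, its shape gives the library number, and bars are mean ± SD of 3 libraries. ID3 has 4 groups that do not overlap, BMP4 falls from 45.5 to 50.7 CPM in vehicle to 11.9 to 15.4 CPM in TGFβ, and BMPER is lowest in the library numbered 3 of every group.

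TGFβ against vehicle gave the response to the cytokine alone. ID3, SMAD6, BMPR2, ID2, BMP2 and ID1 rose and BMP4 fell, so 7 of the 8 tested genes had a Benjamini-Hochberg adjusted p under 0.05, the threshold for a call, against 37% of all tested genes. The same 7 genes were those whose libraries did not overlap between the groups, which held for 46.6% of all tested genes. The median log2 fold change of the 8 was 0.67, beside -0.03 over all tested genes. The 2 ligand genes moved in opposite directions.

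BMP4 (ENSG00000125378, chromosome 14, 53949736 to 53958761, minus strand, GRCh38) encodes a ligand that acts early in development and in epithelial and mesenchymal exchange. It had 50.7, 48.1 and 45.5 CPM in vehicle, 39.6, 38.6 and 43.8 CPM in Aramchol, 11.9, 13.7 and 15.4 CPM in TGFβ, and 14.8, 15.8 and 15.3 CPM in TGFβ + Aramchol. Every library with TGFβ lay far under every library without it. BMP4 was 3.53-fold lower in TGFβ than in vehicle (log2 fold change -1.82, SE 0.09, adjusted p = 1.85e-10, edgeR). A gene of the opposite strand, ENSG00000287156, overlaps BMP4 in the table, with 19 to 150 counts per library against 707 to 3272 for BMP4. Since the strand setting of the counting is not given, reads of the pair cannot be told apart.

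BMP2 (ENSG00000125845, chromosome 20, 6767686 to 6780246, plus strand) encodes a close relative of BMP4 that binds the same receptors. It had 6.06, 4.79 and 2.75 CPM in vehicle, 6.90, 6.51 and 3.98 CPM in Aramchol, 7.45, 6.85 and 6.72 CPM in TGFβ, and 7.41, 6.89 and 5.79 CPM in TGFβ + Aramchol. In each group the library numbered 3 was the lowest. With TGFβ against vehicle the log2 fold change was 0.63 (SE 0.23, adjusted p = 0.0437, edgeR), and this call was lost under 12 of 22 other settings. It was lost without vehicle replicate 2 (adjusted p = 0.0731) or 3 (0.146), without Aramchol replicate 2 (0.0511), without TGFβ replicate 1 (0.116), 2 (0.0826) or 3 (0.0711), and without TGFβ + Aramchol replicate 1 (0.0524) or 2 (0.051). Upper quartile scaling, a stricter filter, DESeq2 and a robust fit lost it too. In RPKM, BMP4 in vehicle was 15.5 beside 1.28 for BMP2, and in TGFβ 4.41 beside 1.98.

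BMPR2 (ENSG00000204217, chromosome 2, 202376327 to 202567751, plus strand) encodes a type II receptor for BMPs. It had 78.4, 85.3 and 107 CPM in vehicle, 91.1, 95.6 and 105 CPM in Aramchol, 167, 172 and 186 CPM in TGFβ, and 153, 175 and 178 CPM in TGFβ + Aramchol. All 6 libraries with TGFβ were above all 6 without it. BMPR2 rose 1.94-fold with TGFβ (log2 fold change 0.95, SE 0.10, adjusted p = 1.15e-06, edgeR).

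BMPER (ENSG00000164619, chromosome 7, 33904308 to 34156427, plus strand) encodes a secreted protein that binds BMPs and can hinder or favour their action. It had 17.1, 16.0 and 4.64 CPM in vehicle, 15.6, 15.8 and 7.61 CPM in Aramchol, 16.9, 16.5 and 10.4 CPM in TGFβ, and 15.0, 14.8 and 7.10 CPM in TGFβ + Aramchol. The library numbered 3 was the lowest of its group each time, and the groups overlapped. BMPER was not called in any comparison, under any of the settings tried. Its log2 fold change with TGFβ was 0.22, with a 95% interval of -0.62 to 1.06 that leaves room for a rise like that of ID2 and for a fall. In the fit with a term for number 3, BMPER was 2.19-fold lower in those libraries (adjusted p = 4.88e-06, edgeR). The same term was called for ID1 (-0.33, adjusted p = 0.00441), BMP2 (-0.50, adjusted p = 0.00611) and BMPR2 (0.20, adjusted p = 0.00739), and not for ID2, ID3, SMAD6 or BMP4. That makes 4 of 8 genes, against the 12.6% of all tested genes given above.

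SMAD6 (ENSG00000137834, chromosome 15, 66702236 to 66782849, plus strand), whose window holds the palindrome shown above, had 8.88, 7.62 and 7.19 CPM in vehicle, 7.14, 7.01 and 7.45 CPM in Aramchol, 18.8, 20.9 and 20.01 CPM in TGFβ, and 17.4, 18.3 and 17.9 CPM in TGFβ + Aramchol. The groups fell into a low pair and a high pair, with no library between 8.88 and 17.4 CPM. SMAD6 rose 2.52-fold with TGFβ (log2 fold change 1.34, SE 0.09, adjusted p = 5.13e-09, edgeR). SMAD7, the other inhibitory SMAD gene and a well known target of TGFβ, rose by 3.34 on the same scale, from 8.75 ± 1.49 to 88.4 ± 1.09 CPM.

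ID1 (ENSG00000125968, chromosome 20, 31605283 to 31606515, plus strand) had 42.1, 41.2 and 27.8 CPM in vehicle, 30.2, 32.3 and 23.2 CPM in Aramchol, 46.4, 59.3 and 46.6 CPM in TGFβ, and 50.8, 44.3 and 42.8 CPM in TGFβ + Aramchol. The vehicle library numbered 3 lay among the Aramchol libraries. With TGFβ the log2 fold change was 0.46 (SE 0.15, adjusted p = 0.0245, edgeR). The call was lost without vehicle replicate 3 (adjusted p = 0.0852), without TGFβ replicate 2 (adjusted p = 0.133) and in a robust fit (adjusted p = 0.0746).

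ID2 (ENSG00000115738, chromosome 2, 8678845 to 8684461, plus strand) had 2.12, 2.19 and 2.36 CPM in vehicle, 2.25, 1.86 and 1.83 CPM in Aramchol, 3.86, 3.39 and 3.61 CPM in TGFβ, and 2.80, 2.72 and 2.29 CPM in TGFβ + Aramchol. TGFβ stood above the 3 other groups. ID2 rose 1.63-fold with TGFβ (log2 fold change 0.70, SE 0.13, adjusted p = 0.000637, edgeR). The antisense gene ID2-AS1 overlaps it with 43 to 102 counts per library, against 123 to 230 for ID2, so the level of ID2 is uncertain by the share of reads that could belong to either.

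ID3 (ENSG00000117318, chromosome 1, 23557926 to 23559501, minus strand) had 21.6, 22.6 and 14.4 CPM in vehicle, 11.6, 10.9 and 8.73 CPM in Aramchol, 44.9, 49.3 and 55.2 CPM in TGFβ, and 34.5, 29.6 and 39.4 CPM in TGFβ + Aramchol. The 4 groups did not overlap, with Aramchol lowest, then vehicle, then TGFβ + Aramchol, then TGFβ. ID3 rose 2.55-fold with TGFβ (log2 fold change 1.35, SE 0.15, adjusted p = 3.05e-06, edgeR). ID2, ID3, SMAD6, BMP4 and BMPR2 kept their calls for TGFβ against vehicle in all 22 other settings.

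**Figure D2:**
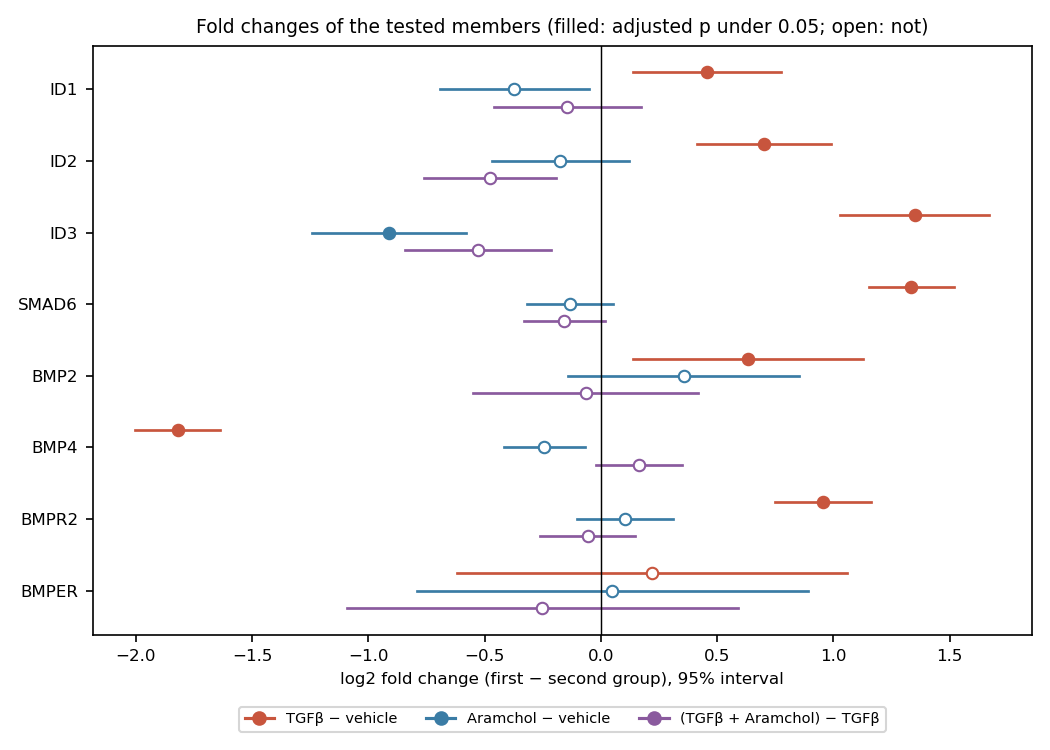
Log2 fold changes (horizontal axis) with 95% intervals for the 8 tested genes (vertical axis) in 3 comparisons from the edgeR fit. Filled points have an adjusted p under 0.05. TGFβ moves 7 genes, with BMP4 alone to the left at -1.82. The only filled point for Aramchol alone is ID3 at -0.91. The comparisons share libraries, so their points are not independent.

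Aramchol against vehicle gave the effect of the drug on cells without TGFβ, and ID3 was the only one of the 8 genes called, against 0.357% of all tested genes (77 genes). ID3 was 1.88-fold lower, at 10.4 ± 1.48 against 19.5 ± 4.48 CPM (log2 fold change -0.91, SE 0.16, 95% interval -1.24 to -0.58, adjusted p = 0.0231, edgeR). The direction held in every setting, with a log2 fold change from -1.09 to -0.79. The call did not: it was lost without vehicle replicate 1 (adjusted p = 0.0894) or 2 (0.117), without Aramchol replicate 1 (0.0579), 2 (0.0921) or 3 (0.0537), with the 2 groups fitted alone (0.171) and in a robust fit (0.0772).

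For ID1 the log2 fold change with Aramchol was -0.37 (95% interval -0.69 to -0.05, adjusted p = 0.351, edgeR). Without vehicle replicate 3, whose 27.8 CPM was the lowest of its group, ID1 was called (adjusted p = 0.0275). It was also called with a term for number 3 (adjusted p = 0.0434), from the libraries numbered 1 and 2 alone (0.00215) and without a filter (0.000196). BMP4 was -0.24 (-0.42 to -0.07, adjusted p = 0.257), and its Aramchol libraries all lay under its vehicle libraries. ID3 and BMP4 were the 2 genes without overlap between these groups, against 16% of all tested genes. The intervals of SMAD6 (-0.32 to 0.05), ID2 (-0.47 to 0.12), BMPR2 (-0.10 to 0.31), BMP2 (-0.14 to 0.85) and BMPER (-0.79 to 0.89) covered 0, and those of ID2, BMP2 and BMPER reached the size of the change of ID1 with TGFβ.

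TGFβ + Aramchol against TGFβ gave the effect of the drug in the presence of the cytokine. None of the 8 genes was called in the main edgeR fit, against 2.25% of all tested genes (486 genes). At an unadjusted p under 0.05 there were 2, ID3 and ID2, and DESeq2 called the same 2 genes. ID3 stood at 34.5 ± 4.87 CPM with both agents and 49.8 ± 5.15 CPM with TGFβ alone, a log2 fold change of -0.53 (SE 0.15, 95% interval -0.84 to -0.21, adjusted p = 0.0763, edgeR). ID2 stood at 2.60 ± 0.273 and 3.62 ± 0.235 CPM, a log2 fold change of -0.48 (-0.76 to -0.19, adjusted p = 0.0784).

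ID3, ID2 and SMAD6 were the 3 genes whose libraries did not overlap between these groups, against 23.6% of all tested genes. DESeq2 gave adjusted p = 0.0103 for ID3 and 0.0233 for ID2. With a term for number 3 in edgeR they were 0.0198 and 0.0309, and without vehicle replicate 3 they were 0.00716 and 0.0476. With the replicate number as a block in edgeR they were 0.0320 and 0.0345, so both genes were called. The other genes were not called in the main fit, though BMP4 was in the libraries numbered 1 and 2 alone (adjusted p = 0.0385). The intervals of their differences were -0.46 to 0.17 for ID1, -0.33 to 0.02 for SMAD6, -0.26 to 0.15 for BMPR2 and -0.02 to 0.35 for BMP4. BMP2 (-0.55 to 0.42) and BMPER (-1.09 to 0.59) were measured less closely.

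TGFβ + Aramchol against Aramchol gave the effect of the cytokine in cells that had the drug, and 6 of 8 genes were called, against 30.2% of all tested genes. ID3 (1.73, adjusted p = 3.57e-07), SMAD6 (1.31, adjusted p = 9.68e-09), BMPR2 (0.79, adjusted p = 1.07e-05), ID1 (0.69, adjusted p = 0.00239) and ID2 (0.40, adjusted p = 0.0374) rose on the log2 scale. BMP4 fell by 1.41 (adjusted p = 3.8e-09, edgeR). The call of ID2 was lost in 7 other settings, among them the fits without Aramchol replicate 2 (adjusted p = 0.13) or 3 (0.125) and without TGFβ + Aramchol replicate 1 (0.128) or 2 (0.106). The values for the same genes with TGFβ against vehicle were 1.35, 1.34, 0.95, 0.46, 0.70 and -1.82.

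Whether the effect of Aramchol differed with and without TGFβ was tested as an interaction. None of the 8 genes was called, beside 3 of all tested genes (0.0139%), and DESeq2 called none of the 8 either. At an unadjusted p under 0.05 there was 1, BMP4, with an interaction of 0.41 (95% interval 0.15 to 0.66, adjusted p = 0.784, edgeR). In the 8 libraries numbered 1 and 2 alone BMP4 was called (adjusted p = 0.00189). For ID3 the interaction was 0.38 with a 95% interval of -0.07 to 0.84, so that a change of the drug's effect on ID3 by TGFβ was neither detected nor bounded closely.

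With both agents against vehicle, the net state of the cells, 4 of 8 genes were called, against 35.2% of all tested genes. ID3 was higher by 0.82, SMAD6 by 1.18 and BMPR2 by 0.90, and BMP4 lower at -1.65 on the log2 scale (adjusted p = 0.000459, 2.7e-08, 2.66e-06 and 6.19e-10, edgeR). ID1 at 0.31 (adjusted p = 0.12), BMP2 at 0.57 (adjusted p = 0.0715) and ID2 at 0.23 (adjusted p = 0.222) were not called. A fit with the replicate number as a block called ID1 and BMP2 too (adjusted p = 0.00985 and 0.00319). BMP2 was also called without vehicle replicate 1 (adjusted p = 0.0137) and without Aramchol replicate 3 (0.0378).

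Within the ID family the share of ID3 moved. ID3 made up 29.5% of the summed ID1, ID2 and ID3 RPKM in vehicle, 22.4% in Aramchol, 43.8% in TGFβ and 37.5% in TGFβ + Aramchol. The ratio of ID3 to ID1, which does not depend on the scaling of libraries, was 0.434 ± 0.0155 in vehicle, 0.301 ± 0.0208 in Aramchol, 0.819 ± 0.146 in TGFβ and 0.623 ± 0.117 in TGFβ + Aramchol. In vehicle its 3 values ran only from 0.423 to 0.452, although ID1 and ID3 were both low in replicate 3. The ratios of vehicle overlapped neither those of Aramchol nor those of TGFβ, while those of TGFβ + Aramchol and TGFβ overlapped. These ratios were formed with the values known and are given without a p-value.

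E proteins, the partners that ID proteins sequester, give a second denominator. TCF3 rose slightly with TGFβ (log2 fold change 0.34, adjusted p = 0.000772), TCF4 rose from a low level (1.52, from 1.14 ± 0.124 to 3.27 ± 0.836 CPM, adjusted p = 4.14e-05), and TCF12 stood at 0.04 (adjusted p = 0.624, edgeR). The summed RPKM of ID1, ID2 and ID3 over that of TCF3, TCF4 and TCF12 was 1.29 ± 0.243 in vehicle, 0.879 ± 0.169 in Aramchol, 1.89 ± 0.133 in TGFβ and 1.48 ± 0.111 in TGFβ + Aramchol. Aramchol lay under vehicle, and TGFβ above vehicle and above TGFβ + Aramchol, without overlap. The values of TGFβ + Aramchol (1.41 to 1.61) overlapped those of vehicle (1.01 to 1.45). These are ratios of transcripts and not of proteins, given without a p-value.

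**Figure D3:**
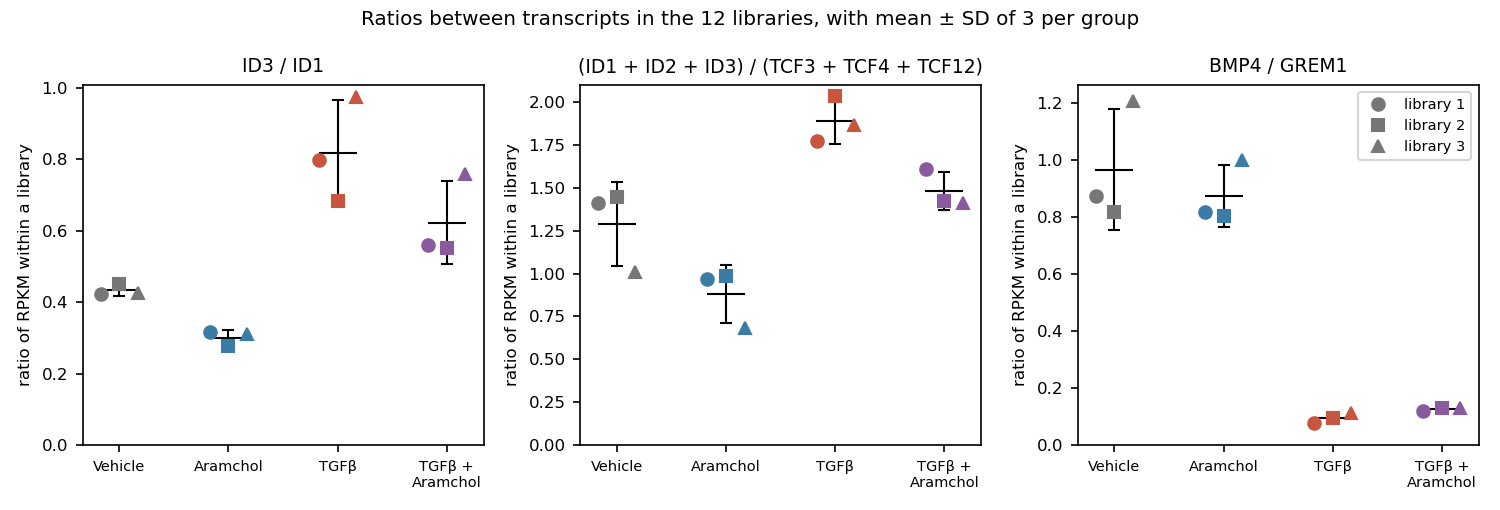
Ratios of RPKM within each library (vertical axes, from 0) in the 4 groups: ID3 over ID1, summed ID genes over summed E protein genes, and BMP4 over GREM1. Points are libraries, shapes give the library number, and bars are mean ± SD of 3. ID3 over ID1 is 0.423 to 0.452 in vehicle and 0.685 to 0.975 in TGFβ, and BMP4 over GREM1 is near 1 without TGFβ and near 0.1 with it.

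Around these 9 genes, 76 further genes of the pathway were listed by role, and 60 of them were tested. With TGFβ against vehicle 41 were called, 29 higher and 12 lower, where 37% of all tested genes were called, with a median log2 fold change of 0.41 beside -0.03 over all tested genes. Among 6 tested ligand genes 2 rose and 2 fell, beside the same 37% of all tested genes. GDF6, a BMP-type ligand of skeletal development, rose by 2.20, from 8.64 ± 1.19 to 39.8 ± 6.30 CPM (adjusted p = 5.54e-10). BMP5 was lower at a trace level, 0.326, 0.0988 and 0.259 CPM in vehicle against 0, 0.0470 and 0.0726 CPM in TGFβ (adjusted p = 0.029, edgeR). The call was lost without vehicle replicate 1 (adjusted p = 0.102) or 3 (0.0622) and without TGFβ replicate 1 (0.111) or 2 (0.0756). Summed over BMP2, BMP4, BMP6, BMP8B and GDF6, a set made after the values were seen, the level was 21.6 ± 1.67 RPKM in vehicle, 19.5 ± 0.374 in Aramchol, 19.8 ± 1.61 in TGFβ and 16.4 ± 0.852 RPKM in TGFβ + Aramchol. The first 3 groups overlapped, and the libraries with both agents (15.42 to 16.96 RPKM) lay under all others, which was not tested.

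Among 9 tested receptor and co-receptor genes 2 rose and 2 fell, a share near the 37% of all tested genes that were called. ENG, a co-receptor that binds TGFβ and BMP ligands, rose by 1.69 (adjusted p = 5.06e-09), with 13.3, 12.9 and 9.42 CPM in vehicle and 37.0, 39.0 and 39.1 CPM in TGFβ. Among the 4 SMAD genes of the pathway, also beside 37%, none rose and SMAD1 fell by 0.33 (adjusted p = 0.0443, edgeR). The call was lost without vehicle replicate 1 (adjusted p = 0.0619), 2 (0.132) or 3 (0.0528), without TGFβ replicate 2 (0.0577) or 3 (0.206), without TGFβ + Aramchol replicate 1 (0.0528) or 2 (0.0589), and with RLE scaling (0.0519). SMAD1, SMAD5 and SMAD9 are regulated mainly by phosphorylation, which counts of RNA do not show.

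Of 10 intracellular or membrane inhibitors 7 rose and 1 fell, where 37% of all tested genes were called. SMAD7 rose by 3.34 and PMEPA1, a membrane protein that curbs SMAD signalling, by 4.20 (32.9 ± 7.26 to 607 ± 23.8 CPM, adjusted p = 1.53e-12). Of 14 tested secreted antagonists and modulators 8 rose and 3 fell, against the same 37%. NOG, whose product noggin binds BMPs, rose by 3.50 from 0.129 ± 0.0198 to 1.45 ± 0.339 CPM (adjusted p = 9.45e-08). BMP1, which despite its name encodes a protease that cleaves the antagonist chordin and procollagens, rose by 1.05 (160 ± 9.54 to 332 ± 16.9 CPM, adjusted p = 8.43e-10).

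GREM1, chosen here after its values were seen, encodes the BMP antagonist gremlin and was far more abundant than NOG. It rose by 1.48, from 246 ± 57.3 to 684 ± 35.6 CPM (adjusted p = 9.04e-08, edgeR). The ratio of BMP4 to GREM1 in RPKM was 0.967 ± 0.212 in vehicle, 0.874 ± 0.109 in Aramchol, 0.0958 ± 0.0174 in TGFβ and 0.127 ± 0.0055 in TGFβ + Aramchol. The ratio was 10.1-fold lower in TGFβ than in vehicle. That is a description without a p-value, since the pair was made knowing that BMP4 fell and GREM1 rose. The libraries with a low ratio are those given TGFβ, alone or with Aramchol. In all of them ID1, ID3 and SMAD6 were higher than in vehicle, which restates the changes given above. A relation of the ratio to these genes was not tested. ID2 was higher in the TGFβ libraries, but with both agents it overlapped vehicle.

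Of 9 other tested targets of BMP signalling, 5 rose and 1 fell, where 37% of all tested genes were called. HEY1, a repressor known as a Notch and BMP target, rose by 2.697 (0.397 ± 0.0433 to 2.57 ± 0.390 CPM, adjusted p = 8.66e-09). ATOH8, a helix-loop-helix gene known to respond to BMP SMADs, had 96.8, 92.3 and 60.4 CPM in vehicle and 14.7, 15.3 and 12.9 CPM in TGFβ, and fell by 2.54 (adjusted p = 1.6e-09, edgeR). ATOH8 thus moved with BMP4 and against ID1, ID2, ID3 and SMAD6. Of 5 genes under ID and E protein control all were called, 3 higher and 2 lower, against the same 37%. CDH1, the gene of the junction protein E-cadherin, which E proteins repress, fell by 2.72 (72.8 ± 9.67 to 11.05 ± 0.833 CPM, adjusted p = 1.39e-11).

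**Figure D4:**
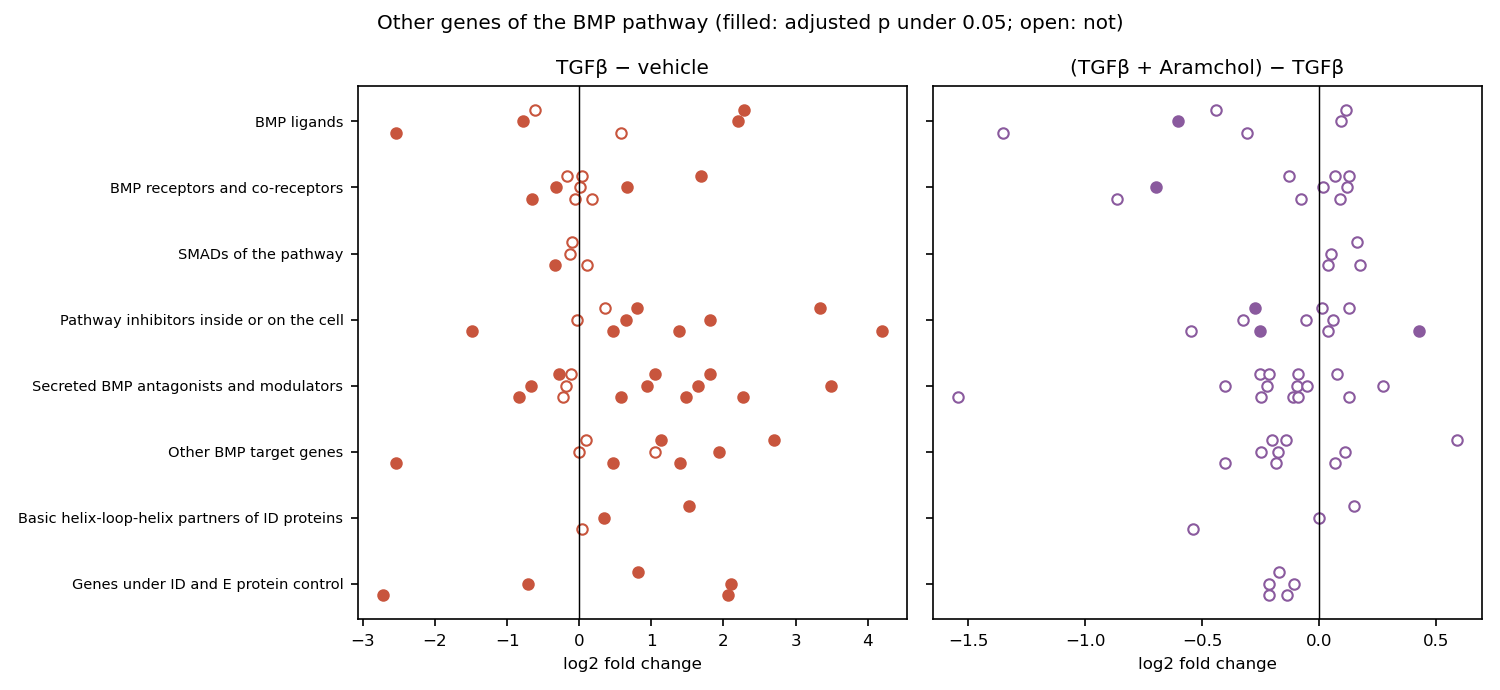
Log2 fold changes (horizontal axes, of different range) of the 60 tested genes of the pathway lists, 1 point per gene, by role (vertical axis), for TGFβ against vehicle and TGFβ + Aramchol against TGFβ. Filled points have an adjusted p under 0.05 by edgeR. With TGFβ 29 genes are filled to the right of 0 and 12 to the left. Aramchol on top of TGFβ gives 1 to the right and 4 to the left.

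With Aramchol against vehicle none of the 60 pathway genes was called by edgeR, where 0.357% of all tested genes were. At an unadjusted p under 0.05 there were 11, and DESeq2 called 1. On top of TGFβ 5 were called, 1 higher and 4 lower, where 2.25% of all tested genes were called, with a median of -0.10 beside -0.00 over all tested genes. ENG had 37.0, 39.0 and 39.1 CPM in TGFβ and 23.6, 24.1 and 23.4 CPM in TGFβ + Aramchol, a log2 fold change of -0.70 (adjusted p = 0.00542) that was called in all 22 other settings. GDF6 went from 43.6, 43.2 and 32.5 to 27.3, 26.9 and 24.4 CPM (-0.60, adjusted p = 0.0123).

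SMURF2, a ubiquitin ligase for receptors and SMADs, was lower (-0.28, adjusted p = 0.0156), as was FKBP1A, which encodes a protein that holds type I receptors inactive (-0.25, adjusted p = 0.018). TOB1, an inhibitor of BMP SMADs that fell with TGFβ, was higher (0.43, adjusted p = 0.0314, edgeR). These 4 calls other than ENG were lost without single libraries. Without TGFβ + Aramchol replicate 1 or 2 all 4 were lost (adjusted p = 0.0515 to 0.132), as they were without TGFβ replicate 1 (0.0628 to 0.0872). Without TGFβ replicate 2, GDF6 (0.066), SMURF2 (0.059) and TOB1 (0.106) were lost, and without TGFβ replicate 3, TOB1 (0.123) and FKBP1A (0.0955). In ID3, ID2, ENG and GDF6 alike the libraries with both agents lay between vehicle and TGFβ, or overlapped vehicle in the case of ID2. The comparisons with TGFβ share the 3 TGFβ libraries, so they are not independent.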

How the data were processed

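Total RNA of H69 cells was sequenced in 12 libraries, 3 in each of 4 groups. The deposited table holds raw counts of reads per gene. STAR 2.7.9a, featureCounts, Subread and DESeq2 are the tools, and GRCh38 the build, per the submitters' processing notes. For the annotation release and the strand setting: not given in the sources used here. All count columns matched a sample.

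CPM is the count scaled to the library total times its TMM factor, and RPKM divides this by the gene length in the table. Only the floor in CPM uses the library total without that factor. After filterByExpr and TMM scaling, the counts were fitted in edgeR 4.0.16 (R 4.3.3, limma 3.58.1) by the quasi-likelihood test, 1 mean per group over all 12 libraries, with Benjamini-Hochberg adjustment over the 21567 genes tested and a threshold of 0.05. The procedure was tested on simulated data. Total counts per library are in the report, intervals cover the spread among libraries, and the floor of 3 counts covers counting error only. Ratios of levels are given without a p-value, since an exact permutation test of 3 against 3 libraries cannot give one under 0.1. Tried beside this were DESeq2 1.42.0, scaling by RLE or by the upper quartile, a stricter filter or none, a replicate block, a term for number 3, libraries numbered 1 and 2 alone, only the groups compared, a robust fit, and each library left out.

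The 9 genes and the pathway lists were chosen with earlier results of these data known. Pathway genes were named by rule in each of TGFβ against vehicle, Aramchol against vehicle and TGFβ + Aramchol against TGFβ: the called gene with the smallest p in each list and the 6 called genes with the largest log2 change, with TCF3, TCF4 and TCF12 always. For ID1, ID2 and ID3 the 3 genes (mean of at least 5 CPM) with the smallest root mean square difference in log2 CPM relative to vehicle were named. SMAD7 was named as a check of the TGFβ treatment. A further gene of this rule is not reported here. Promoters are from RefSeq (GRCh38.p14).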

Additional observations from a re-analysis of the deposited data

How the results depend on the processing

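With 3 libraries per group, calls near the threshold depended on the setting, and BMPER and BMP2, which varied most, were limited most. Genes called with TGFβ against vehicle numbered 5 to 7 of 8 throughout. With Aramchol against vehicle, 1 gene was called, and 2 without a filter, 2 with a term for number 3, 3 from libraries numbered 1 and 2, 0 from the groups compared alone, 0 in a robust fit and 0 to 2 when single libraries were left out. With TGFβ + Aramchol against TGFβ, 0 were called, and 1 without a filter, 2 with DESeq2, 2 with the replicate block, 2 with the term, 2 from numbers 1 and 2, 1 from the groups compared alone and 0 to 2 when single libraries were left out. In the interaction, numbers 1 and 2 alone gave 1, and no fit of only the groups compared exists because it uses all 4. Filters or DESeq2 left BMP5 and NOG without a value in some settings.

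Over all genes, Aramchol against vehicle gave 77 calls (51 higher, 26 lower; 37 and 38 with upper quartile scaling), and 531 without a filter, 399 with DESeq2, 464 with the block, 538 with the term, 1544 from numbers 1 and 2, 5 from the groups compared alone and 16 to 611 without single libraries. TGFβ + Aramchol against TGFβ gave 486, and 1278, 1042, 1519, 1683, 1853, 960 and 55 to 1209 in the same order. The interaction gave 3, and 151, 26, 23, 31 and 191 without a filter, with DESeq2, the block, the term and numbers 1 and 2, and 0 to 7 without single libraries. The cause was not tested.

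Directions turned in uncalled genes only. TCF12 with TGFβ was -0.00319 under upper quartile scaling. From numbers 1 and 2, BMPER with Aramchol was -0.0754, BMP2 with both agents against TGFβ 0.00100 and SMAD6 in the interaction 0.0664. BMPER with both agents against vehicle was 0.0414 with the block and 0.0404 with the term. Without single libraries BMPER ran from -0.18 to 0.51 (TGFβ against vehicle), -0.35 to 0.34 (Aramchol against vehicle), -0.443 to 0.0269 (both against TGFβ), -0.36 to 0.20 (both against Aramchol), -0.43 to 0.26 (both against vehicle) and -0.59 to 0.10 (interaction). BMP2 ran from -0.145 to 0.0289 (both against TGFβ) and -0.000848 to 0.35 (both against Aramchol), BMPR2 from -0.0988 to 0.0106 (both against TGFβ) and SMAD6 from -0.117 to 0.0413 (interaction).

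Libraries of the same number correlated in their deviations by 0.00739 to 0.107 for number 1, 0.0158 to 0.0812 for number 2 and 0.111 to 0.221 for number 3, against -0.146 to 0.0907 for different numbers. Number 3 was thus shared across the groups, but not all pairs of numbers 1 and 2 were over 0.1, so the numbers as a whole were not taken to pair the samples. Of the 12 libraries 9 correlated best with one of their own number (4 of 4 for numbers 1 and 3, 1 of 4 for number 2). The running numbers of the column headers also order the libraries in sets of 4 by replicate number, 1 per group. Neither states that the samples were paired. The main fit therefore has no block, and results with the block are given beside it.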

Other observations

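Among 11282 tested genes with a symbol and at least 5 CPM, the pattern over the 12 libraries most like that of ID3 was that of PGF, the gene of placental growth factor, with a root mean square difference of 0.254 in log2 CPM relative to vehicle. PGF averaged 21.5 CPM in vehicle, 14.0 in Aramchol, 64.1 in TGFβ and 42.8 in TGFβ + Aramchol. FAM43A (0.305) and MEGF6 (0.310) followed. For ID1 the nearest were RAB15, a small GTPase gene (0.148), CCN1, the gene of a secreted matrix-associated protein (0.151), and TNFRSF25 (0.152). CCN1 averaged 218 CPM in vehicle, 180 in Aramchol, 335 in TGFβ and 280 in TGFβ + Aramchol. For ID2 they were DNAJC3, a co-chaperone gene of the endoplasmic reticulum (0.130), EFNB3 (0.138) and PLEKHO2 (0.142). The distance for ID3 was thus larger than those for ID1 and ID2, whose own changes were smaller.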
